A study of Mus musculus with 2 samples.

Results

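The platelet-derived growth factor (PDGF) family of the mouse liver was read as 6 genes of the 22508 in the deposited table: the ligand genes Pdgfa, Pdgfb, Pdgfc and Pdgfd and the receptor genes Pdgfra and Pdgfrb. They were chosen by name, with earlier results of these data known. The samples were 2 libraries of 1 group, WT replicate 1 and WT replicate 2, both healthy liver of 8-week-old C57BL/6 mice, dissociated with enzymes, spun on a Percoll gradient and read by droplet-based 3' sequencing. How many animals were used, and whether the libraries came from separate ones, is not stated. Cells were placed in types by gates, that is by how many UMIs (unique molecules) of a type's marker genes they held. Gates that left at least 20 cells in a library were ranked, except 45 endothelial cells that no subset's markers placed, left out after the data were seen. This gave 14 types and 8311 cells.

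PDGF chains are secreted as dimers. PDGF-A and PDGF-B are cut inside the cell by furin-like proteases, whereas PDGF-C and PDGF-D leave the cell with an inhibitory CUB domain that proteases such as the plasminogen activators remove outside. The receptor alpha (gene Pdgfra) binds A, B and C chains and the receptor beta (gene Pdgfrb) binds B and D chains. In injured liver PDGF is known as a growth and migration signal for stellate cells, the vitamin A storing pericytes of the sinusoid.

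In the GRCm38 annotation Pdgfa lies at chr5:138976014-138997370 (minus strand), Pdgfb at chr15:79995874-80014977 (minus strand), Pdgfc at chr3:81036416-81214040, Pdgfd at chr9:6168584-6378850 and Pdgfra at chr5:75152292-75198215 (these 3 on the plus strand). They are protein-coding, and 3' counts do not tell their isoforms apart. The 3 ligand genes that had their highest ranked level in bile duct cells, below, are shown by the 250 bases before their RefSeq starts (GRCm38.p6), read along the gene. Capitals mark the TATA motif (TATAAA), the GC box (GGGCGG) or the CCAAT box (CCAAT) on either strand.
Pdgfa distal start, chr5:138994945-138995194, minus strand: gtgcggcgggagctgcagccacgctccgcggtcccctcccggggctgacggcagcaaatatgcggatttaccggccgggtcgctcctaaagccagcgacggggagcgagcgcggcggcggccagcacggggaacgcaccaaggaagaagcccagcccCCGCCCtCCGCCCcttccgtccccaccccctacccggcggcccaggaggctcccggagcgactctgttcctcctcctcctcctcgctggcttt
Pdgfa proximal start, chr5:138994282-138994531, minus strand: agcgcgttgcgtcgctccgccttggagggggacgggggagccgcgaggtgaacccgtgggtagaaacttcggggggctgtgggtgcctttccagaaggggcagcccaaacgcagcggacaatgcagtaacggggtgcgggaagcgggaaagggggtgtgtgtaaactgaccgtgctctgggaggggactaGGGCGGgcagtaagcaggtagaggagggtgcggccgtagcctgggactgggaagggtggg
Pdgfc, chr3:81036166-81036415, plus strand: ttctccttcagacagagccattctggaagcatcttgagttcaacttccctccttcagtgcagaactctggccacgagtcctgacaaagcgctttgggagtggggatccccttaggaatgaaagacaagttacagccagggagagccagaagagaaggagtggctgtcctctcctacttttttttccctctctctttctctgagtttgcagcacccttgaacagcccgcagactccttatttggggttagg
Pdgfd, chr9:6168236-6168485, plus strand: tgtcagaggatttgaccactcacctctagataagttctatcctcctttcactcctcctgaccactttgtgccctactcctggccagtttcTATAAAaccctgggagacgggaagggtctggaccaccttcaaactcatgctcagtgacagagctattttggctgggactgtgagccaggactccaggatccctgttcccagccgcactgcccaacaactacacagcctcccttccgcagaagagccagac
The distal Pdgfa window held 28 CG dinucleotides and 2 GGGCGG matches, both on the reverse strand, and the proximal one 19 and 1. The Pdgfc window held 3 CG and none of the 3 motifs. The Pdgfd window held 3 CG and 1 TATAAA, 160 bases before the start. Over 32851 windows of that length the median was 6 CG dinucleotides, 12.4% held TATAAA, 32.7% held GGGCGG and 33.8% held CCAAT. Thus 3 ligand genes that shared a highest type did not share a motif of these 3. No start site was measured.

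The libraries held different cells. Replicate 1 had 7362 cells and 40645060 UMIs, of which 6765 cells passed the filter (median 4719 UMIs). Replicate 2 had 2341 cells and 11867207 UMIs, and all cells passed (median 5012 UMIs). The stellate gate took 2150 cells of replicate 2 and 5 of replicate 1, and every other ranked type came from replicate 1. A difference between stellate cells and any other type is therefore also a difference between libraries, and these cannot be told apart. 5 barcodes occurred in both libraries. With no type of 20 cells in both libraries no test over samples was possible. Intervals are exact, at 95%, and cover counting error only, and levels are UMIs per 1000000 UMIs of the type (CPM).

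The receptors were found in mesenchymal cells. The Pdgfrb gene lies at chr18:61045150-61085061 on the plus strand (GRCm38). Pdgfra stood at 443 CPM in portal fibroblasts, the matrix-making cells around the portal tracts (302 UMIs in 96 cells, 395 to 496 CPM), and at 223 CPM in stellate cells (2418 UMIs in 2150 cells, 214 to 232 CPM). Pdgfrb stood at 216 CPM in stellate cells (2340 UMIs, 207 to 225 CPM) and at 126 CPM in portal fibroblasts (86 UMIs, 101 to 156 CPM). So the order of these 2 types turned between the receptors, and in neither case did the counting intervals overlap. Portal fibroblasts over stellate cells gave a ratio of 1.99 for Pdgfra (1.76 to 2.24), and stellate cells over portal fibroblasts one of 1.71 for Pdgfrb (1.38 to 2.15).

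Smooth muscle cells carried the beta receptor and no UMI of the alpha receptor. With 15 cells they were too few to be ranked. Pdgfrb had 21 UMIs there (207 CPM, 128 to 316) in 8 of 15 cells, and Pdgfra had 0 UMIs, which allows up to 29.5 CPM (3 counts). The smooth muscle value of Pdgfrb overlapped that of stellate cells.

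In the other ranked types both receptors were near zero. The highest other ranked type was vein-marker endothelium for Pdgfra, at 1.80 CPM (4 UMIs, 0.492 to 4.62), and mesothelial cells for Pdgfrb, at 3.002 CPM (2 UMIs, 0.364 to 10.8). Pdgfrb had 13 UMIs in 13 of 2455 Kupffer cells, the resident macrophages (1.10 CPM), and 8 UMIs in 8 of 1520 sinusoidal endothelial cells (1.24 CPM). The 6 stellate markers summed to 10.3 CPM in Kupffer and 41.5 CPM in sinusoidal endothelial cells, against 10257 CPM in stellate cells. The part of free stellate RNA in these low counts was not tested. T or NK cells (192 cells, median 3326.5 UMIs) held 0 UMIs of either receptor, which allows up to 1.56% of cells with a UMI and does not limit the share that expresses the genes. Cells of replicate 1 that entered no type were not near zero. The 184 ungated cells had 42.6 CPM of Pdgfrb (17 UMIs in 4 cells, up to 13 in 1 cell) and 25.1 CPM of Pdgfra (10 UMIs in 6 cells). The 338 cells with markers of more than 1 type had 18.6 CPM of Pdgfrb and 21.3 CPM of Pdgfra.

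A UMI of the alpha receptor was seen in 84 of 96 portal fibroblasts (87.5%, 79.2 to 93.4) and in 1330 of 2150 stellate cells (61.9%). Pdgfrb was seen in 51 portal fibroblasts (53.1%, 42.7 to 63.4) and 1313 stellate cells (61.1%). The median depth was 7030.5 UMIs in portal fibroblasts and 4973.5 in stellate cells. With each cell thinned to 1000 UMIs the Pdgfra share was 33.7% (24.3 to 44.1) of portal fibroblasts and 20.6% (18.9 to 22.4) of stellate cells. The thinned Pdgfrb share was 14.7% (8.30 to 23.5) of portal fibroblasts and 18.4% (16.8 to 20.1) of stellate cells, whose intervals overlapped. The Pdgfra order thus held at equal depth, while the Pdgfrb order was not resolved by shares.

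Many cells held both receptors. In stellate cells 833 of 2150 (38.7%) had a UMI of each, 497 had Pdgfra alone, 480 had Pdgfrb alone and 340 had neither. The product of the separate shares is 812 cells, close to the 833 seen. Cell depth was shared by both genes, so this count does not tell whether the receptors leaned to separate stellate cells. In portal fibroblasts 45 of 96 cells had both, 39 had Pdgfra alone and 6 had Pdgfrb alone, and the product of shares is 44.6 cells. Per cell the highest count in stellate cells was 11 UMIs for Pdgfra and 10 for Pdgfrb.

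**Figure D1:**
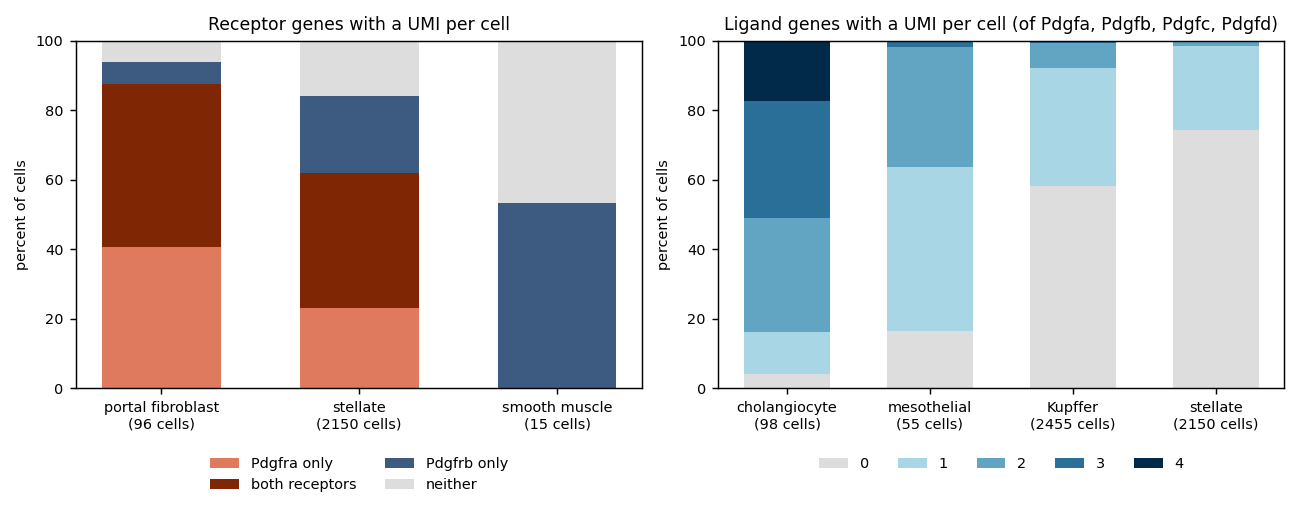
Left, percent of portal fibroblasts, stellate cells and smooth muscle cells with a UMI of Pdgfra only, of both receptors, of Pdgfrb only or of neither. Right, percent of cells of 4 types by the number of ligand genes with a UMI. Both receptors were seen in 46.9% of portal fibroblasts and 38.7% of stellate cells, and 17.3% of cholangiocytes held all 4 ligand genes.

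Within the stellate cells of replicate 2 the receptors differed in their relation to landmarks of the lobule. Cells with UMIs of central-vein landmarks only (Adamtsl2, Loxl1, Podn, Spon2; 397 cells, median 4535 UMIs) were set against cells with portal landmarks only (Ngfr, Itgb3, Igfbp3, Il34; 382 cells, median 4787.5 UMIs). Pdgfrb stood at 168 CPM in central-landmark cells (302 UMIs) and 277 CPM in portal-landmark cells (504 UMIs), a central over portal ratio of 0.605 (0.523 to 0.699). Its level was thus 1.65-fold higher in the portal-landmark cells (1.43 to 1.91), and 3.27% of 7553 genes with at least 50 UMIs had a lower ratio. Pdgfra stood at 244 CPM in central-landmark cells and 217 CPM in portal-landmark cells (ratio 1.12, 0.979 to 1.29), an interval that holds 1. None of the 6 genes passed 2-fold with at least 50 UMIs, which 1.24% of genes did on the central side and 1.24% on the portal side. The smooth muscle markers summed to 6.10 CPM in the central-landmark and 42.9 CPM in the portal-landmark cells, with 3 of 6 at 0 in both, and the stellate markers to 9326 CPM in the central-landmark and 11367 CPM in the portal-landmark cells. The part of these in the Pdgfrb difference was not tested. Position in the tissue was not measured, and 1330 stellate cells with landmarks of both sides and 41 with none were left out.

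When stellate cells were placed by the side with more landmark UMIs, a split chosen after the data were seen that left 222 of 2150 cells unplaced, Pdgfrb stood at 181 CPM in 976 central-majority cells and 255 CPM in 952 portal-majority cells (ratio 0.711, 0.652 to 0.775). Pdgfra stood at 243 CPM in central-majority and 201 CPM in portal-majority cells (ratio 1.21, 1.11 to 1.31). The cells of the narrower split are part of this one, so the values are not independent of it. Neither receptor reached 2-fold, as 0.812% of 10223 genes did on the central side and 0.753% on the portal side. The cells of either split came from 1 library, so this difference has no replicate.

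**Figure D2:**
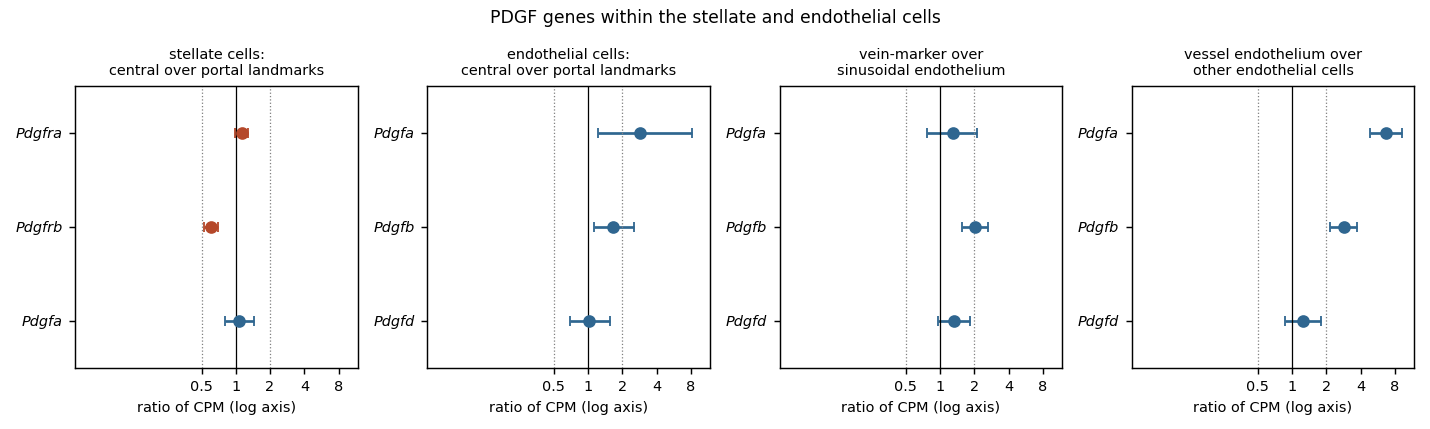
Ratio of CPM with its 95% counting interval on a log axis for 3 genes in each of 4 splits, with dotted lines at 0.5 and 2. Pdgfrb lies at 0.605 between central-landmark and portal-landmark stellate cells, and Pdgfa (6.67) and Pdgfb (2.86) are higher in vessel endothelium than in the other endothelial cells.

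Among the ligands, Pdgfa, whose A chain binds the alpha receptor, was highest among ranked types in cholangiocytes, the bile duct epithelium. It stood there at 168 CPM (247 UMIs in 98 cells, 148 to 190), followed by mesothelial cells of the liver capsule at 131 CPM (87 UMIs in 55 cells, 105 to 161). Portal fibroblasts had 57.2 CPM (39 UMIs, 40.7 to 78.3) and stellate cells 51.4 CPM (557 UMIs, 47.2 to 55.9), which overlapped. The 15 smooth muscle cells had the highest value of any gate, 325 CPM (33 UMIs in 13 cells, 224 to 456). Kupffer cells had 16.6 CPM (196 UMIs) and sinusoidal endothelial cells 8.40 CPM (54 UMIs). The ratio of cholangiocytes over mesothelial cells was 1.29 (1.004 to 1.66). Where a type's markers had to hold 90% rather than 75% of a cell's marker UMIs, 3 mesothelial cells were left and the ratio was 4.02. At 60% the gate took 132 mesothelial cells and the ratio was 1.49. With markers shared between types dropped, an alternative chosen after the data were seen, it took 147 and the ratio was 1.56. The mesothelial gate as reported thus left out many cells that looser gates took.

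Pdgfa was thus expressed in the same cell types that held the receptors. A UMI of Pdgfa was seen in 457 of 2150 stellate cells (21.3%) and 23 of 96 portal fibroblasts (24.0%), against 78 of 98 cholangiocytes (79.6%) at a median of 9913.5 UMIs. At 1000 UMIs per cell the share was 5.12% of stellate cells, 8.42% of portal fibroblasts and 14.3% of cholangiocytes. T or NK cells held 0 UMIs of Pdgfa in 192 cells.

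Pdgfb, the ligand gene for both receptors, was highest among ranked types in Kupffer cells. It stood there at 62.0 CPM (732 UMIs in 2455 cells, 57.6 to 66.7) and was seen in 554 cells (22.6%), of which 419 had 1 UMI and 29 had 3 or more. The 45 unplaced endothelial cells, not ranked, had 65.3 CPM from 3 UMIs in 1 cell (13.5 to 191). Vein-marker endothelium, gated on Vwf, Selp, Wnt9b and Cdh13, followed at 44.2 CPM (98 UMIs in 340 cells, 35.9 to 53.9). The ratio of Kupffer cells over vein-marker endothelium was 1.40 (1.14 to 1.75). Monocytes or dendritic cells had 34.0 CPM (20 UMIs), cholangiocytes 23.1 CPM (34 UMIs) and sinusoidal endothelial cells 21.8 CPM (140 UMIs, 18.3 to 25.7). Neighbours in this order from vein-marker endothelium down to the portal or arterial set overlapped in their counting intervals. Stellate cells had 0.738 CPM (8 UMIs) and portal fibroblasts, mesothelial cells and hepatocytes had 0 UMIs, which in hepatocytes allows up to 3.39 CPM.

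The Kupffer levels were also read by the cytokine UMIs of the cells. Kupffer cells with at least 10 UMIs over Tnf, Il1b, Il1a, Ccl3, Ccl4 and Cxcl2 had 62.9 CPM (559 UMIs in 1534 cells, 57.8 to 68.3). Those with 1 to 9 such UMIs had 56.5 CPM (141 UMIs in 724 cells) and those with 0 had 77.2 CPM (32 UMIs in 197 cells, 52.8 to 109). For Pdgfb the counting interval of each of the 3 ratios between these groups held 1. Pdgfc stood at 52.9 CPM in the cells with at least 10 cytokine UMIs, 67.3 CPM in those with 1 to 9 and 50.7 CPM in those with 0. The first of these over the second gave a ratio of 0.785 (0.657 to 0.942), and the other 2 intervals held 1. The median depths were 5137, 2519.5 and 1543 UMIs in the same order. This grouping was chosen after the data were seen. Among T or NK cells 14 UMIs of Pdgfb were counted in 11 of 192 cells. The 21 cells with no UMI of Cd3d, Cd3e or Cd3g held 6 of them (89.2 CPM, 32.7 to 194). The 171 others held 8 (12.4 CPM, 5.34 to 24.3). Endothelial markers summed to 102 CPM in all T or NK cells and 948 CPM in Kupffer cells, against 16473 CPM in sinusoidal endothelial cells. That sum is not given for the 21 cells apart. The part of endothelial RNA in the Pdgfb counts of either type was not tested.

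Pdgfc, a ligand gene for the alpha receptor, had 2 main sources. Cholangiocytes had 125 CPM (184 UMIs in 98 cells, 108 to 145) and Kupffer cells 55.9 CPM (659 UMIs in 2455 cells, 51.7 to 60.3). The ratio of cholangiocytes over Kupffer cells was 2.24 (1.89 to 2.64). Pdgfc was the only one of the 6 genes whose highest ranked type was at least 2-fold above every other, against 23.5% of 14680 genes with at least 50 UMIs. Since Kupffer cells were the more numerous, they held 70.7% of the 932 Pdgfc UMIs in the kept cells of replicate 1 and cholangiocytes 19.7%. Endothelial and stellate cells hardly held any: 3 UMIs in 1520 sinusoidal endothelial cells (0.467 CPM) and 3 in 2150 stellate cells (0.277 CPM).

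Pdgfd, a ligand gene for the beta receptor, was shared between epithelium and endothelium. Cholangiocytes had 103 CPM (151 UMIs, 87.0 to 121), mesothelial cells 52.5 CPM (35 UMIs, 36.6 to 73.1) and portal fibroblasts 27.9 CPM (19 UMIs, 16.8 to 43.6). Vein-marker endothelium had 27.1 CPM (60 UMIs), the portal or arterial set 26.3 CPM (206 UMIs) and sinusoidal endothelium 20.2 CPM (130 UMIs, 16.9 to 24.0). The counting intervals of portal fibroblasts and these 3 endothelial gates overlapped, while the portal or arterial set over sinusoidal endothelium gave a ratio of 1.30 (1.04 to 1.63). Stellate cells had 11.2 CPM (121 UMIs in 118 cells, 9.27 to 13.3). Kupffer cells, high in Pdgfb and Pdgfc, had 0.424 CPM of Pdgfd (5 UMIs in 2455 cells, 0.138 to 0.989).

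**Figure D3:**
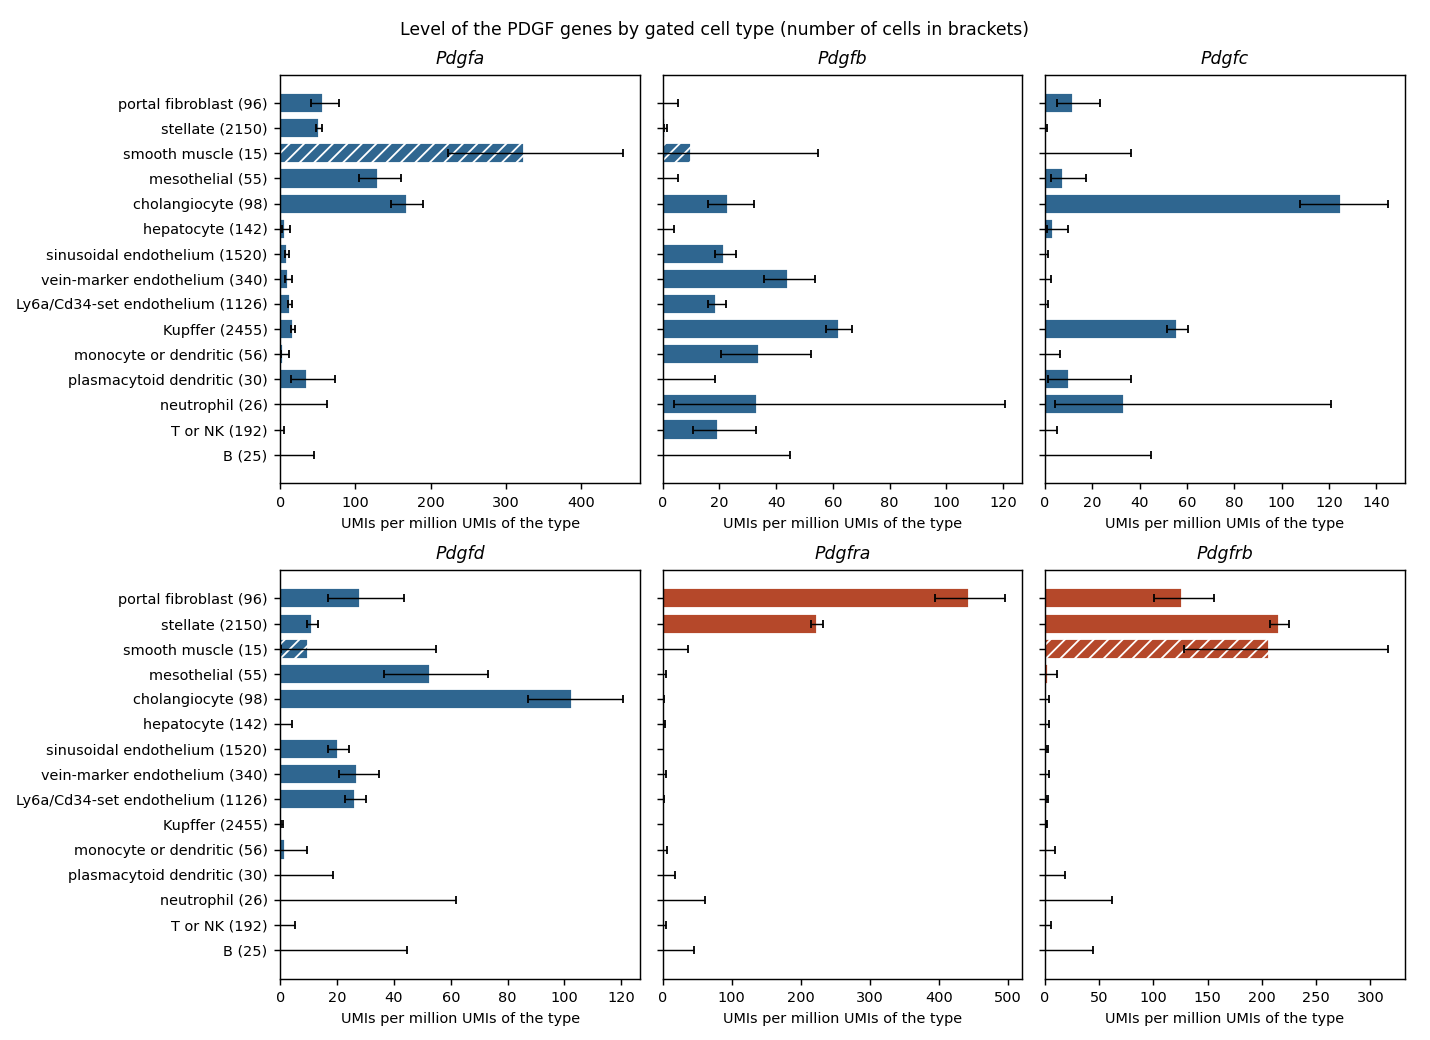
Level of each PDGF gene (CPM, bars from 0, with 95% counting intervals) in the 14 ranked types and, hatched, in the 15 smooth muscle cells, with the number of cells in brackets. Ligand genes are blue and receptor genes red. The stellate bars come from replicate 2 and the rest from replicate 1. Pdgfra reaches 443 CPM in portal fibroblasts and Pdgfrb 216 CPM in stellate cells, whereas Pdgfc reaches 125 CPM in cholangiocytes.

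Of 4 types read for ligand genes per cell, cholangiocytes held the most. Of 98 cells 17 (17.3%) held a UMI of all 4 ligand genes, 33 held 3, 32 held 2, 12 held 1 and 4 held none. In mesothelial cells 1 of 55 held 3 and none held 4, with a median of 11085 UMIs per cell. In Kupffer cells 14 of 2455 (0.570%) held 3, 181 held 2 and 1429 held none. In cholangiocytes Pdgfa and Pdgfc were seen together in 60 cells, where the product of shares is 58.1, and in Kupffer cells Pdgfb and Pdgfc in 128, where it is 116. Other pairs lay further above the product. In Kupffer cells Pdgfa was seen with Pdgfb in 46 cells (product 36.6) and with Pdgfc in 44 (33.9). In cholangiocytes Pdgfb was seen with Pdgfd in 22 cells (17.9). These pairs were thus seen together as often as their shares give or more often, with cell depth shared by both genes.

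The UMIs of the family were unevenly spread over the cells of replicate 1. Kupffer cells, 36.3% of the kept cells, held 58.5% of the 1251 Pdgfb UMIs and 70.7% of the Pdgfc UMIs. Cholangiocytes, 1.45% of the cells, held 23.5% of the 1049 Pdgfa UMIs and 21.6% of the 698 Pdgfd UMIs. Portal fibroblasts, 1.42% of the cells, held 74.2% of the 407 Pdgfra UMIs and 37.6% of the 229 Pdgfrb UMIs. For Pdgfrb 27.5% and for Pdgfa 22.9% lay in 338 mixed cells, whose markers pointed to more than 1 type. Such shares depend on which cells the preparation kept, and replicate 1 held 5 stellate cells.

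**Figure D4:**
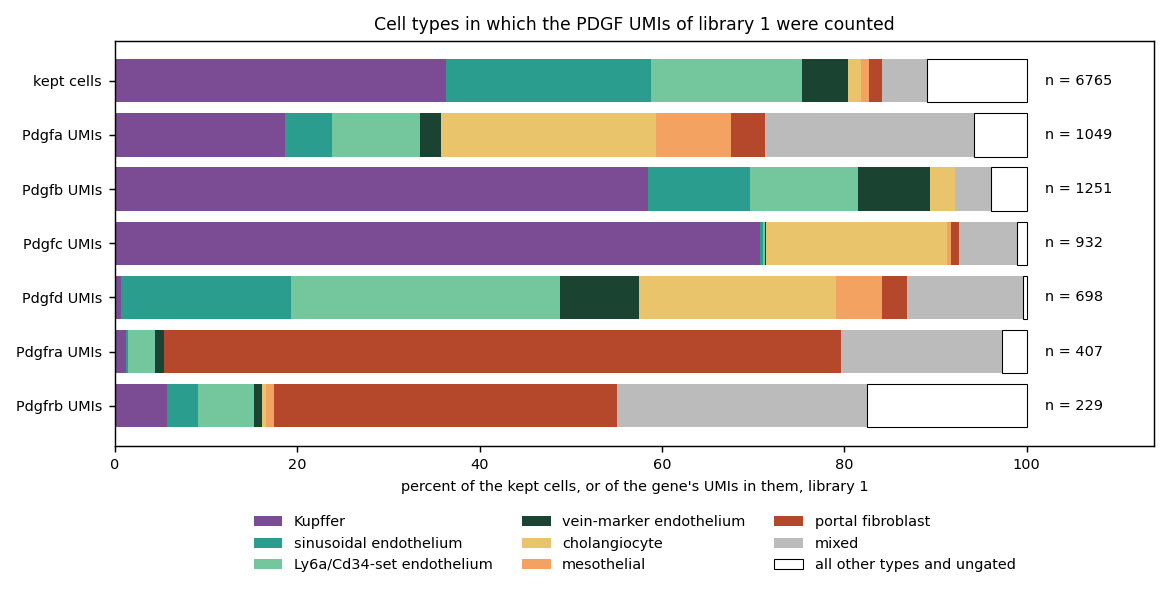
Percent of the kept cells of replicate 1 (top bar) and of the UMIs of each PDGF gene in them (6 lower bars) by gated type, with the number of cells or UMIs at the right. Kupffer cells make up 36.3% of cells and 70.7% of Pdgfc UMIs, and portal fibroblasts 1.42% of cells and 74.2% of Pdgfra UMIs.

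Endothelial cells of all subsets, not the sinusoidal ones alone, were then split by landmarks of the sinusoid. Cells with central landmarks only (Kit, Wnt2, Thbd; 1031 cells) were set against cells with portal landmarks only (Efnb2, Dll4; 367 cells). Pdgfb stood at 33.4 CPM in central-landmark cells (160 UMIs) and 20.01 CPM in portal-landmark cells (30 UMIs), a ratio of 1.67 (1.12 to 2.55). Pdgfa stood at 11.5 CPM in central-landmark cells (55 UMIs) and 4.002 CPM in portal-landmark cells (6 UMIs), a ratio of 2.87 (1.24 to 8.15). Of the 6 genes it alone was past 2-fold here with at least 50 UMIs, as were 2.38% of 9043 genes on the central side and 1.29% on the portal side. Pdgfd had 22.7 CPM in central-landmark and 22.0 CPM in portal-landmark cells (ratio 1.03, 0.694 to 1.57). Median depth was 4605 UMIs in central-landmark and 4041 UMIs in portal-landmark cells. Position in the tissue was not measured. Cells of the vessel gate described below were not left out of this split. Pdgfa stood at 52.2 CPM in that gate, against 7.83 CPM in the other endothelial cells, and Pdgfb at 59.0 CPM, against 20.7 CPM. The part of vessel cells in the central over portal ratios was not tested.

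Pdgfb was higher in vein-marker than in sinusoidal endothelium. In vein-marker endothelium Pdgfb was at 44.2 CPM and in sinusoidal endothelium at 21.8 CPM, a ratio of 2.03 (1.55 to 2.65), against 2% of 9708 genes past 2-fold on that side and 1.57% on the sinusoidal side. Portal fibroblast markers summed to 95.2 CPM in vein-marker and 4.05 CPM in sinusoidal cells, and their part in the Pdgfb difference was not tested. For Pdgfa the same ratio was 1.29 (0.762 to 2.12), but 5.17 with Cdh13 and other shared markers dropped from the gates, an alternative chosen after the data were seen. The portal or arterial set was mostly chosen by Ly6a, which gave 79.4% of its marker UMIs, and Clec4g, which marks sinusoidal cells, was detected in 96.2% of its 1126 cells and 97.9% of sinusoidal ones. It is therefore read here as a Ly6a-marked set of the endothelium and not as portal or arterial cells. Clec4g was also detected in 92.9% of vein-marker cells, and Cdh13 gave 44.1% of their marker UMIs, so that this set too is named by its markers and not as vein cells. The Pdgfb level of the Ly6a-marked set was 18.9 CPM, against 21.8 CPM in sinusoidal endothelium (ratio 0.869, 0.685 to 1.10). The ratio turned to 1.71 without the shared markers, Ly6a among them. None of the 6 genes passed 2-fold with at least 50 UMIs here, as 2.32% of 10727 genes did on the Ly6a-marked side and 0.513% on the sinusoidal side.

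A narrower vessel gate, also chosen after the data were seen, took 143 endothelial cells with more UMIs of Vwf, Selp, Wnt9b, Gja5, Sox17 and Adgrg6 than of sinusoidal markers. Pdgfa stood at 52.2 CPM in them (62 UMIs in 28 cells) and at 7.83 CPM in the 2903 other endothelial cells (121 UMIs), a ratio of 6.67 (4.83 to 9.13). Pdgfb stood at 59.0 CPM in vessel cells (70 UMIs) and 20.7 CPM in the others (319 UMIs), a ratio of 2.86 (2.17 to 3.71). Of 11067 genes 6.99% were past 2-fold on the vessel side and 12.5% on the other side. With the gate at 90% of marker UMIs the Pdgfa ratio fell to 1.60. Portal fibroblast markers summed to 695 CPM in the vessel cells and 19.7 CPM in the others, and smooth muscle markers to 9.27 CPM in the vessel cells and 0.712 CPM in the others. Their part in the Pdgfa difference was not tested. Pdgfd was at 29.5 CPM in vessel cells and 23.4 CPM in the others (1.26, 0.863 to 1.78).

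Genes for proteases that cut PDGF inside or outside the cell and for its extracellular partners were read next. The lists of pathway genes were chosen by their known roles, with earlier results of these data known. In portal fibroblasts 4 of 8 genes for PDGF-cutting proteases were at least 2-fold above the mean of the other ranked types and 1 was lower, against 16% of 14680 genes higher and 22.2% lower. The convertase gene Pcsk6 stood at 483 CPM in portal fibroblasts (329 UMIs), against a mean of 12.8 CPM in the other types, and Pcsk5 at 79.3 CPM (54 UMIs), against 3.15 CPM. Plat, for the tissue plasminogen activator that cuts PDGF-C, stood at 229 CPM in portal fibroblasts (156 UMIs), against 10.2 CPM. Plau, for urokinase, which cuts PDGF-D, stood at 44.0 CPM (30 UMIs), against 3.12 CPM. The median log2 fold of the list was 1.57, and -0.08 over all genes tested.

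In stellate cells 0 of these 8 were higher and 6 were lower, against 12.4% of genes higher and 26.4% lower. Plat stood at 2.86 CPM in stellate cells (31 UMIs), against a mean of 27.6 CPM in the other types. Plau stood at 1.20 CPM (13 UMIs), against 6.41 CPM. The Plat mean was carried by portal fibroblasts (229 CPM), mesothelial cells (87.1 CPM) and the Ly6a-marked set (35.4 CPM). Every other ranked type was below stellate cells in Plat, such as Kupffer cells at 0.932 CPM. Pcsk6, called lower at 18.2 CPM, was higher only in portal fibroblasts (483 CPM), mesothelial cells (84.1 CPM) and hepatocytes (59.9 CPM). A call against the mean thus does not place stellate cells below most types. The median log2 fold was -1.92, and -0.12 over all genes. St14, for matriptase, which can also cut PDGF-D, had 149 UMIs in cholangiocytes (101 CPM) and 0 in stellate cells. Plg, for plasminogen, was at 794 CPM in hepatocytes. Furin itself was within 2-fold of the mean of the other types in portal fibroblasts (29.4 CPM) and in stellate cells (33.7 CPM).

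Of 6 extracellular partners 5 had at least 50 UMIs. Lrp1, a coreceptor that binds the beta receptor, stood at 748 CPM in stellate cells, against a mean of 166 CPM in the other types. In portal fibroblasts it stood at 868 CPM, against 157 CPM. Kupffer cells, with few UMIs of either receptor, had 742 CPM of Lrp1 (8758 UMIs), close to stellate cells. Sparc, a matrix protein that binds PDGF-B, stood at 2717 CPM in stellate cells, against 696 CPM, and at 3209 CPM in portal fibroblasts, against 659 CPM. Thbs1 was the split case, at 23.4 CPM in stellate cells, against 76.1 CPM, and at 605 CPM in portal fibroblasts, against 31.3 CPM. Nrp1, a coreceptor of endothelium, was lower in stellate cells than in the mean, at 147 CPM, against 327 CPM. That mean was carried by the sinusoidal (1423 CPM), Ly6a-marked (1221 CPM) and vein-marker (1155 CPM) sets. Portal fibroblasts (164 CPM) were also above stellate cells in Nrp1. Every other ranked type was below, such as Kupffer cells at 64.0 CPM. In Thbs1 only portal fibroblasts, monocytes or dendritic cells, neutrophils, mesothelial cells and cholangiocytes were above stellate cells. Against these means, 2 partners were higher and 2 lower in stellate cells, and 4 higher and 0 lower in portal fibroblasts. The lower calls do not place stellate cells below most types in Nrp1 or Thbs1. The shares over all genes were 12.4% higher and 26.4% lower in stellate cells, and 16% higher and 22.2% lower in portal fibroblasts.

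Genes inside the receptor pathway were set against the mean of the other types in the same way. In stellate cells 5 of 16 signalling genes were higher and 3 lower, where 12.4% of all genes were higher and 26.4% lower. Gab1, a docking protein, stood at 94.7 CPM in stellate cells, against 20.2 CPM in the mean of the other types, Src at 45.0 CPM, against 7.69 CPM, and the adaptor Nck2 at 37.5 CPM, against 8.69 CPM. The PI3 kinase subunit genes Pik3r1 (310 CPM, against 149 CPM) and Pik3ca (118 CPM, against 52.8 CPM) were the other higher ones. Of these, Gab1 and Pik3ca had their highest ranked level in stellate cells. Types with few or no receptor UMIs were highest in the rest: cholangiocytes in Src (48.3 CPM) and Nck2 (38.1 CPM), and Kupffer cells in Pik3r1 (454 CPM). The genes lower in stellate cells were the adaptor Grb2 (64.2 CPM, against 140 CPM) and the Src-family kinases Fyn (33.7 CPM, against 225 CPM) and Yes1 (21.0 CPM, against 55.8 CPM). The mean counted each type once, so endothelium entered it as sinusoidal, vein-marker and Ly6a-marked sets. Yes1 stood at 202 CPM in sinusoidal, 183 CPM in vein-marker and 187 CPM in Ly6a-marked cells. Cholangiocytes (48.3 CPM), mesothelial cells (33.0 CPM) and hepatocytes (23.7 CPM) were also above stellate cells in Yes1, and every other ranked type was below. In portal fibroblasts, where 16% of all genes were higher and 22.2% lower, 0 of 16 were higher and 3 lower, with Nck2 at 1.47 CPM (1 UMI), against 11.5 CPM. Of 6 genes that shut the receptors off 0 were higher in either type, 2 were lower in stellate cells and 3 in portal fibroblasts. The phosphatase gene Ptprj was lower in both, at 13.6 CPM in stellate cells, against 66.8 CPM, and at 25.0 CPM in portal fibroblasts, against 65.9 CPM.

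The genes most like each member were sought over the 14 ranked types by the Pearson correlation of log2(CPM + 1) among 14680 genes, given as a description, since types share libraries and depth. Pdgfra was most like Epha3, an ephrin receptor gene (r = 0.993), followed by Gm9947, Nap1l5, Tril and Kcnk2 (0.987 for the last). Pdgfrb was most like the matrix proteoglycan gene Lum (0.984), then Pde1a, the transcription factor gene Tcf21, Pcdh18 and Olfml3 (0.972). The receptors correlated with each other at 0.959 over the 14 types. Among ligands Pdgfd was most like Tmem132a (0.981), C230071H17Rik, the growth factor receptor gene Erbb2, the basement membrane gene Agrn and Ccdc149. Pdgfa was most like Cnpy2 (0.960), Ift74, Tmem218, Ccdc138 and Rpgrip1l, of which Ift74, Tmem218 and Rpgrip1l belong to cilia. Pdgfb (Gm44423, Slc15a2, Ctla2b, Arhgef3, Arrb2; 0.907 to 0.846) and Pdgfc (1700003F12Rik, Tmem106c, Slc22a23, Stard13, Ccpg1os; 0.833 to 0.753) had no neighbour as close. Each type counted once in the correlation, whatever its number of cells. Pdgfc had 2 UMIs in 26 neutrophils (33.4 CPM), where 1 UMI is 16.7 CPM. Its neighbours 1700003F12Rik (16.7 CPM) and Stard13 (33.4 CPM) were highest in those same neutrophils, so they rest on 1 or 2 UMIs there. None of the 30 genes was a gate marker.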

How the data were processed

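The authors deposited 1 table of raw UMI counts, whole numbers per gene and cell, for the 2 libraries. Cell Ranger 2.1.1, Seurat 3.1 and GRCm38 are named per the submitters' processing notes, and which cells were removed before deposit is not given in the sources used here. The barcode ending (1 or 2) was read as the replicate number. The cell filter asked for 200 or more detected genes and mitochondrial UMIs of 20% or less, which removed 597 cells of replicate 1. A cell entered a type with at least 5 UMIs from at least 2 of its markers and at least 75% of the UMIs of all markers other than hepatocyte ones, which had to be under 5% of its UMIs. Hepatocytes had at least 5%. Endothelial cells were split at 3 UMIs of a subset's markers. Mixed (338 and 191 cells), ungated (184) and unsplit endothelial cells (45) were not ranked, the last decided after the data were seen. The platelet gate took no cell, the basophil or mast gate 2 and the lymphatic gate 15. Reported values remove doublets by the gates alone. As an alternative, cells called by Scrublet or in the highest 5% of its scores were left out. Scrublet in scanpy 1.11.5 called 9 cells (0.133%) of replicate 1, too few to count as working, and 16 (0.683%) of replicate 2. Free RNA was not subtracted.

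UMIs were summed per type and library with Python 3.11.15 and scipy 1.17.1. Levels have exact Poisson intervals, shares exact binomial ones and ratios exact conditional ones, and a count of 0 allows 3 counts. Counts of genes past 2-fold include those whose UMIs summed to 50 or more over the groups compared. The 2-fold rule and the ratio interval were tested on simulated Poisson counts of the size of the stellate landmark split. Those counts had no variation between cells beyond counting error, so the test does not cover such variation or the smaller groups. No sequence of Pdgfb or Pdgfrb is shown. Members, gene lists and markers were chosen with earlier results of these data known. The genes most like a member are the 5 with the highest correlation, and the pathway genes named are past 2-fold in a receptor-bearing type, except Furin, named for its role. 1 gene of the protease list is not reported here and is in none of the list's counts. 10 alternatives to gates, filters and scaling were tried for each level and 2 further splits were added.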

Additional observations from a re-analysis of the deposited data

How the results depend on the processing

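The type with the highest level of each of the 6 genes was the same in every one of the 10 alternatives to gates, cell filter, doublets and scaling, for the ranked types. The unplaced endothelial cells were left out there too, a choice made after the data were seen, and Scrublet had not worked in replicate 1. Of 274 values recomputed, 262 lay within the counting interval of the value reported and 12 moved beyond it. Pdgfb in Kupffer cells was 70.6 CPM as a mean over cells, against 62.0 CPM from sums. The Pdgfrb ratio of central over portal stellate cells was 0.711 with the majority of landmark UMIs. The Pdgfa ratio of vessel over other endothelial cells was 1.60 with gate dominance of 90% and 4.72 as a mean over cells. Without replicate 2, Pdgfrb in stellate cells was 87.8 CPM, 1 UMI in 5 cells, and no stellate split could be made. Without replicate 1, no value exists for the other types. The cause of these shifts was not tested. No paired analysis was possible because the 2 libraries form 1 group and no type had 20 cells in both. Depth limits the small types most: 2 UMIs in 26 neutrophils gave Pdgfb 33.4 CPM with an interval of 4.05 to 121.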
